A study of Mus musculus with 6 samples.

Results

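The genes described here encode estrogen receptor alpha (Esr1), the other receptors for estrogen (Esr2 and Gpr30), the receptors for progesterone (Pgr), glucocorticoids (Nr3c1) and mineralocorticoids (Nr3c2), and the estrogen-induced gene Greb1. They were taken by symbol from a deposited table of read counts per gene, where all 7 were found among 37477 Ensembl IDs. RNA was sequenced from a thigh muscle labelled quadriceps in C57BL/6 mice aged 20 weeks. Wild-type mice (WT, 3 libraries) were set against mice with a muscle-specific estrogen receptor alpha -/- genotype (KO, 3 libraries). The comparison asks how loss of the receptor in muscle alters the transcriptome. The promoter that drives the deletion, the deleted exons, the alleles that the WT mice carry and the number of animals behind each library are not stated in the labels. The p-values therefore measure the spread between these libraries, which may be technical.

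Steroid receptors are proteins that bind a hormone and then act on genes. Estrogen receptor alpha, estrogen receptor beta and the progesterone, glucocorticoid and mineralocorticoid receptors are transcription factors of the nuclear receptor family, held ready by chaperones such as Hsp90 and released to bind DNA as dimers once the hormone arrives. Gpr30, also named Gper1, is a membrane receptor that responds to estrogen without binding DNA. In muscle, glucocorticoids acting through Nr3c1 are known to induce genes of protein breakdown and fuel use, and estrogen receptor alpha is known for effects on metabolism.

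Total counts ranged from 7388365 to 8560244 per library. Levels are given in CPM, counts relative to library sizes that were corrected by the trimmed mean of M values (TMM). Markers of muscle fibres fixed as a list of 12 genes summed to 207348 to 260266 CPM per library, so fibres were well represented. Myh7, the slow myosin heavy chain, stood at 21746 ± 2635 CPM in WT (SD, n = 3), and Myh4, the chain of the fastest fibres, at 303 ± 126 CPM, although mouse quadriceps is known mostly for fast fibres. The libraries were of female type, with 1398 to 1553 counts of Xist, the RNA of the inactive X chromosome, and 0 counts of Ddx3y, Uty, Kdm5d and Eif2s3y on the Y chromosome. Where 3 values of a group follow each other, they stand in the order of replicates 1, 2 and 3.

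Esr1 was lower in every KO library than in every WT library, and it was still read in all of them. Esr1 (ENSMUSG00000019768; plus strand of chromosome 10, 4611593 to 5005614 in mm10) has a pair of start regions in RefSeq (build GRCm38.p6). The 250 bases before the downstream start, chr10:4709908-4710157, are shown as the window before an annotated start of the targeted gene. Counts per gene do not tell which start was used in these libraries. The window is set beside those before Greb1, a textbook estrogen target (chr12:16800887-16801136, minus strand), and Esr2, which had no reads (chr12:76177260-76177509, minus strand). Capitals mark GGTCA on either strand, the half-site that estrogen receptors bind.
Esr1, downstream start: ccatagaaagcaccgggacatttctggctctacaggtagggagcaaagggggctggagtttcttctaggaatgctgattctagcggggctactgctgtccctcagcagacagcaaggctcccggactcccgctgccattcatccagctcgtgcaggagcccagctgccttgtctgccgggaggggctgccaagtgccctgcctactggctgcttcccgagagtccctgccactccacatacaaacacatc
Greb1, upstream start: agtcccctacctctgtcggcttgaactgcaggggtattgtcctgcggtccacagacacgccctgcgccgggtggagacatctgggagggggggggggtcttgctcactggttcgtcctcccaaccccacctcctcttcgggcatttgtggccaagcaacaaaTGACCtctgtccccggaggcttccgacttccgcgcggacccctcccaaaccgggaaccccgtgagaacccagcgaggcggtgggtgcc
Esr2: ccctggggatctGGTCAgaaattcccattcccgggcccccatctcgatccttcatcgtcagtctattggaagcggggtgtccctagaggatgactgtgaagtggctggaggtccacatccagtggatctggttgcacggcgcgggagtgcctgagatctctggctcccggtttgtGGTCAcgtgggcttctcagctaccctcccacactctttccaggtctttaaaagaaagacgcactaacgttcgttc
The Esr1 window held no half-site, the Greb1 window held 1 and the Esr2 window held 2, and a half-site was found in 35.2% of 32841 RefSeq windows of this length. Of the windows not shown, those of Nr3c2 and the downstream Greb1 start held 2 each. Those of Pgr, Gpr30 and the upstream Esr1 start held none. All 250 bases of that upstream Esr1 window lie within annotated exons of Esr1. The full palindrome GGTCANNNTGACC was in none of the 8 windows read for 6 of the 7 genes, with Nr3c1 left out, and in 0.064% of all windows. The glucocorticoid receptor palindrome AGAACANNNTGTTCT was in none of the 8 either, and in 0.009% of all windows. These are matches of letters, searched on both strands, and were not tested as binding sites.

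The WT libraries held 50, 41 and 44 Esr1 counts and the KO libraries 22, 16 and 16. On the CPM scale these were 6.70, 5.61 and 5.58 in WT and 2.60, 1.93 and 1.98 in KO. The lowest WT library thus stood above the highest KO library. The KO level was 36.4% of the WT level, and over the 9 pairings of a KO with a WT library the ratio ran from 0.289 to 0.467. Counting error alone, from 54 against 135 summed counts, allows a ratio of 0.262 to 0.505 (exact binomial 95% interval, counting error only). In KO its log2 difference was -1.45 ± 0.23 (SE). In edgeR's quasi-likelihood test Esr1 ranked 1 of 13848 genes by p, with an adjusted p of 0.145, which did not pass 0.05. The test called 0% of genes, 0 of 13848, while 590 genes (4.26%) had an unadjusted p under 0.05, DESeq2 called 2 (0.0144%) and limma voom called 1 (0.00722%), neither of them Esr1. Esr1 was the 1 of 5 tested members whose KO values all lay below WT, where 5.45% of all genes tested did so, and no member had all KO values above WT (4.96% of genes).

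Few genes of like abundance moved that far. Of 4324 genes with a mean of 2 to 8 CPM, a band chosen after the values were seen, 2 had a log2 difference of -1 or lower, and Esr1 had the lowest value of the band. With no filter on low counts Esr1 passed (adjusted p = 0.000142, where 0.0793% of 23953 genes were called). Its log2 difference there, -1.44 ± 0.26 (SE), was neither larger nor more precise than with the filter, -1.45 ± 0.23 (SE). In the authors' deposited table Esr1 had a log2 fold change of -1.43 and an adjusted p of 0.000152, where 0.0133% of IDs were called. Leaving out 1 library at a time moved the log2 difference between -1.60 and -1.36, and the adjusted p between 0.0903 and 0.822. Counts are summed over the gene. Reads from cells other than fibres and from exons that remain after the deletion were not separated.

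Cells other than fibres were read from marker lists. Of 9 endothelial markers, led in CPM by the adhesion protein Pecam1, 7 were lower and 2 higher in KO, and the log2 median was -0.08. Their summed level was 384 to 395 CPM in WT and 355 to 381 CPM in KO, so all KO libraries lay below WT. By single genes 1 of the 9, Pecam1, had all KO values below WT (5.45% of all genes tested). None had all above (4.96% of genes), and the groups overlapped for the other endothelial markers. The part of the endothelial difference in the Esr1 difference was not tested. Fibroblast markers summed to 754 to 1069 CPM in WT and 829 to 937 CPM in KO, and smooth muscle and pericyte markers to 788 to 822 CPM and 751 to 812 CPM. Adipocyte markers summed to 196 to 243 CPM in WT and 201 to 243 CPM in KO, and macrophage markers to 116 to 157 CPM and 144 to 163 CPM. The summed levels of satellite cell, Schwann cell and blood markers overlapped between groups as well. By single genes, Schwann markers had 0 of 6 tested higher and 6 lower (log2 median -0.18), blood markers 1 higher and 5 lower (-0.38), satellite cell markers 2 and 2 (0.23), adipocyte markers 5 and 2 (0.29), and macrophage markers 6 and 3 (0.10). Fibroblast markers were split 5 and 4 (0.03) and smooth muscle markers 2 and 5 (-0.05). No marker of any list was called. No marker had 0 reads over all 6 libraries. Some fibre markers separated the groups, while the summed level of the list overlapped between groups and its log2 median was 0.05. Of the 12, 4 had all KO values above WT (4.96% of all genes tested) and 1, Myh2, all below (5.45% of genes), and none passed in edgeR's quasi-likelihood test (adjusted p = 0.989 for each of these 5). Actn3, an actinin of fast fibres, had 69.4, 36.5 and 47.5 CPM in WT and 126, 129 and 144 CPM in KO, a log2 difference of 1.38 ± 0.24 (SE, unadjusted p = 0.00207). Pvalb, the calcium buffer of fast fibres, averaged 53.1 ± 12.9 CPM across WT libraries against 97.2 ± 9.21 in KO, and the fast myosin gene Myh1 3363 ± 547 against 4329 ± 347 (SD, n = 3 each). Ckm, the muscle creatine kinase, was the other of the 4, while Myh2, the myosin of intermediate fast fibres, averaged 10380 ± 102 against 9364 ± 329 (SD, n = 3 each). The groups overlapped for the other fibre markers. Among these, Myh4 averaged 303 ± 126 CPM in WT and 491 ± 89.2 in KO, and Myh7 21746 ± 2635 and 21018 ± 1186 (SD, n = 3 each). The fibre genes named here were chosen after their values were seen, and the part of these differences in the Esr1 result was not tested. In whole muscle, fewer cells of a type and less RNA per cell cannot be told apart.

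**Figure D1:**
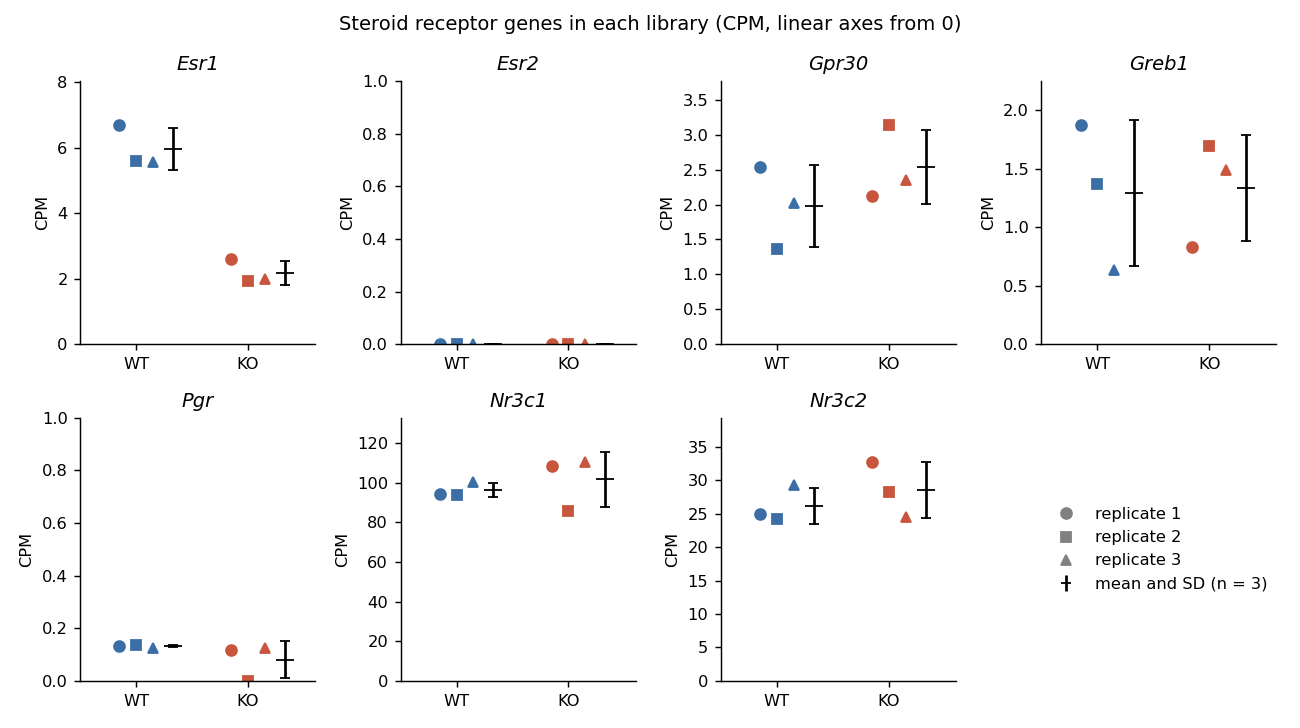
CPM of each of the 7 genes (vertical axes, linear from 0) in the WT and KO libraries, with a point per library and the mean and SD (n = 3) beside each group. Esr1 separates the groups, with 5.58 to 6.70 CPM in WT and 1.93 to 2.60 CPM in KO, while the groups overlap for Gpr30, Greb1, Nr3c1 and Nr3c2.

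Of the other estrogen receptors, Esr2 was not detected and Gpr30 was read at a low level that overlapped between genotypes. Esr2 (ENSMUSG00000021055, chromosome 12, 76120419 to 76177259), which encodes estrogen receptor beta, had 0 counts in all 6 libraries. A count of 0 allows up to 3 counts, or 0.132 CPM over the WT group and 0.121 CPM over the KO group, so at this depth a lower level was not detectable. Esr2 showed no reads in the KO libraries in which Esr1 was low.

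Gpr30 (ENSMUSG00000053647, chromosome 5, 139423151 to 139427800) had 19, 10 and 16 counts in WT and 18, 26 and 19 counts in KO. Its level was 2.55, 1.37 and 2.03 CPM in WT and 2.13, 3.14 and 2.35 CPM in KO. KO replicate 2 was the highest library and WT replicate 2 the lowest, and the rest lay close together. The log2 difference was 0.35 ± 0.31 (SE), with a 95% interval from -0.29 to 1.00 and an adjusted p of 0.993 in edgeR's quasi-likelihood test. The interval leaves room for a rise of up to 2.00-fold or a fall to 0.816 times WT. In the authors' deposited table its log2 fold change was 0.37, with an adjusted p of 1.

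Greb1 and Pgr are textbook targets of estrogen receptor alpha in the breast and uterus, and here Greb1 was read at a low level in all 6 libraries while Pgr was near the limit of detection. Greb1 (ENSMUSG00000036523, chromosome 12, 16670615 to 16800886), a coactivator of the receptor in breast cancer cells, had 14, 10 and 5 counts in WT and 7, 14 and 12 counts in KO. Its level was 1.88, 1.37 and 0.634 CPM in WT and 0.828, 1.69 and 1.49 CPM in KO. Each group spanned most of the range of the other. The log2 difference was 0.05 ± 0.42 (SE), with a 95% interval from -0.84 to 0.95 and an adjusted p of 0.999 in edgeR's quasi-likelihood test. Its sign turned with single libraries, from -0.28 without WT replicate 3 to 0.42 without WT replicate 1. The 95% interval leaves room for Greb1 to fall to 0.558 times WT or to rise up to 1.93-fold. Exons of Gm48140 overlap 7.68% of the exonic bases of Greb1, and without strand the reads there cannot be told apart.

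Pgr (ENSMUSG00000031870, chromosome 9, 8899833 to 8968611), the progesterone receptor gene, had 1 count in each WT library, 1 in KO replicates 1 and 3, and 0 in KO replicate 2. From 3 against 2 summed counts the KO to WT ratio was 0.609, with a counting interval from 0.0509 to 5.32, so no difference could be read. Pgr and Esr2 fell under the filter on low counts and got no test, which left 5 of 7 members tested.

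The receptors for adrenal steroids were the abundant members. Nr3c1 (ENSMUSG00000024431, chromosome 18, 39410545 to 39519421), the glucocorticoid receptor gene, had 94.3, 93.8 and 100 CPM in WT and 108, 85.8 and 111 CPM in KO. The WT libraries lay inside the range of the KO libraries, which held both the lowest and the highest value. The log2 difference was 0.08 ± 0.09 (SE), with a 95% interval from -0.12 to 0.28 and an adjusted p of 0.993 in edgeR's quasi-likelihood test. This interval runs from 0.922 to 1.21 times the WT level. Without KO replicate 2 the log2 difference was 0.19, with a raw p of 0.036 that became 0.754 after adjustment in the same test.

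Nr3c2 (ENSMUSG00000031618, chromosome 8, 76899442 to 77245012), the mineralocorticoid receptor gene, had 24.9, 24.2 and 29.3 CPM in WT and 32.8, 28.3 and 24.5 CPM in KO. KO replicates 2 and 3 fell among the WT values and KO replicate 1 was the highest library. The log2 difference was 0.13 ± 0.12 (SE), with a 95% interval from -0.12 to 0.38 and an adjusted p of 0.993 in edgeR's quasi-likelihood test. Exons of Gm10649 overlap 3.82% of its exonic bases. In the authors' deposited table Nr3c1 had a log2 fold change of 0.09 and Nr3c2 of 0.14, each with an adjusted p of 1.

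**Figure D2:**
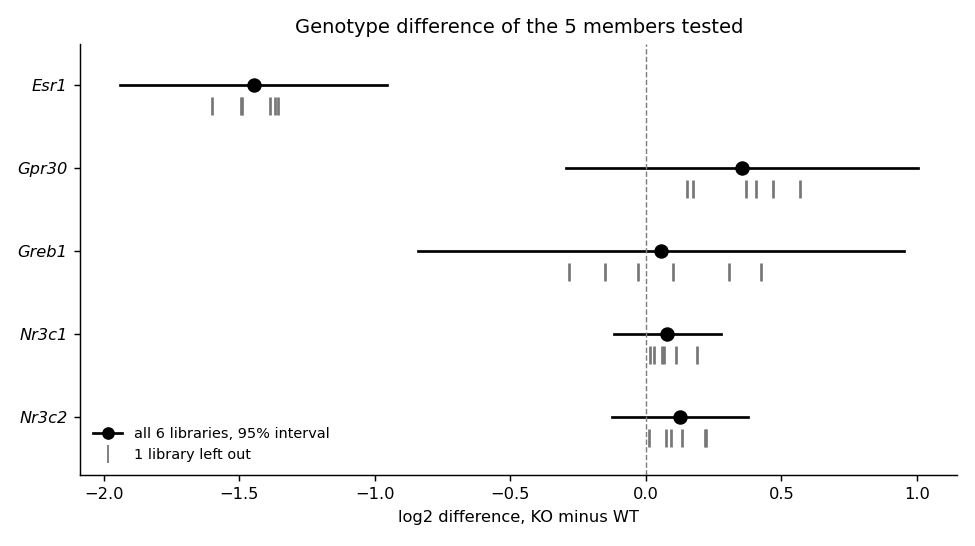
Log2 difference of KO from WT (horizontal axis) for the 5 members tested, as a point with its 95% interval, and below it the 6 values with a single library left out. The interval of Esr1, -1.94 to -0.95, lies left of 0, those of the other 4 include 0, and the left-out values of Greb1 fall on both sides.

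Levels between genes were compared as CPM per kilobase of exon. On this scale the WT means were 12.5 ± 0.459 for Nr3c1, 4.04 ± 0.425 for Nr3c2, 0.781 ± 0.233 for Gpr30, 0.436 ± 0.0467 for Esr1 and 0.135 ± 0.0652 for Greb1 (SD, n = 3 each), followed by Pgr and Esr2. In WT no neighbours in this order had overlapping ranges. In KO the mean of Esr1 was 0.159 ± 0.0274 and that of Greb1 0.139 ± 0.0471, and their ranges overlapped. The place of Esr1 rests on the length used. The union of its annotated exons, 13661 bases, is far longer than its longest transcript, 6339 bases. Per kilobase of longest transcript, a choice made after seeing the data, WT Esr1 stood at 0.940 ± 0.101, overlapping the range of Gpr30 (0.781 ± 0.233), and Nr3c1 at 14.9 ± 0.548 (SD, n = 3).

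Among 20186 protein-coding genes ranked by mean level per kilobase of exon over all 6 libraries, undetected genes included, Nr3c1 was at percentile 92.0, Nr3c2 at 78.1, Gpr30 at 53.6, Esr1 at 42.3, Greb1 at 36.4 and Pgr at 23.3. By the mean of each group Esr1 was at percentile 45.7 in WT and 37.7 in KO. Among the 16357 of these genes with a read in any library, Nr3c1 was at 90.2, Nr3c2 at 73.0, Gpr30 at 42.7, Esr1 at 28.8, Greb1 at 21.5 and Pgr at 5.29. Esr1 made up 2.58% ± 0.344 of the summed length-scaled level of the 5 nuclear receptors among the members in WT and 0.893% ± 0.0972 in KO (SD, n = 3). Nr3c1 made up 73.6% ± 1.05 in WT and 74.2% ± 3.81 in KO. Per kilobase of longest transcript the share of Esr1 was 4.64% ± 0.604 in WT and 1.63% ± 0.180 in KO (SD, n = 3). Per kilobase of exon there was 28.9 ± 3.52 times as much Nr3c1 as Esr1 in WT and 84.0 ± 13.4 times in KO. With the longest transcript as length these ratios were 16.0 ± 1.95 and 46.5 ± 7.42 (SD, n = 3 each).

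**Figure D3:**
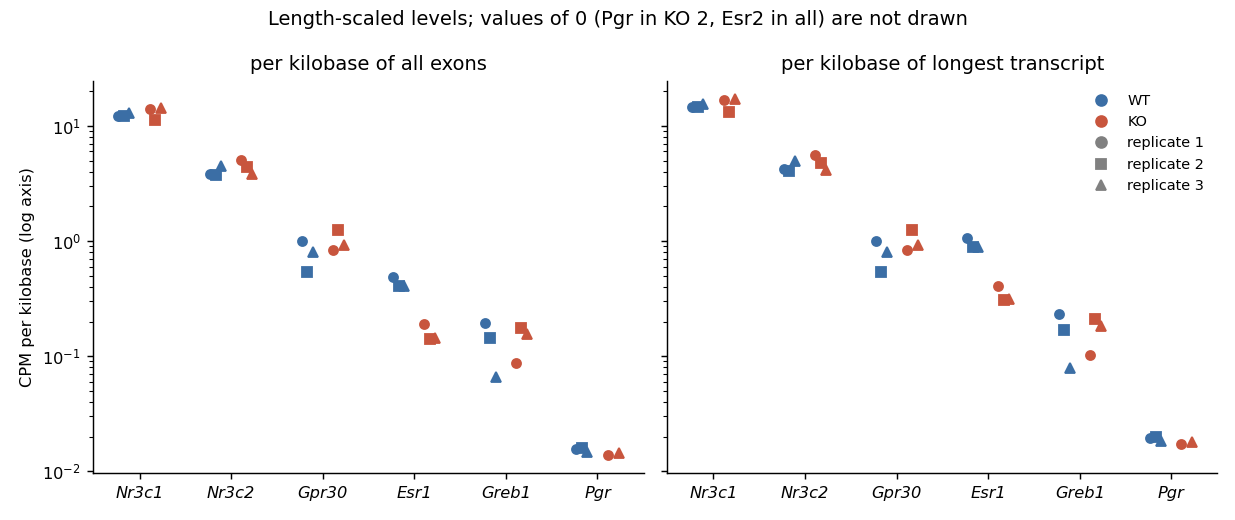
CPM per kilobase (log axis) of 6 members in each library, with the union of exons (left) or the longest transcript (right) as length; values of 0 are not drawn. Nr3c1 and Nr3c2 lead in both panels, at 12.5 and 4.04 on average in WT on the left, and Esr1 moves from below Gpr30 on the left to its level on the right in WT.

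The genes most like each member over the 6 libraries were picked by Pearson r of log2 CPM among genes with a symbol and a mean of at least 5 CPM. These values describe 6 libraries that share depth and genotype with the member, and no p is attached. For Esr1 they were Tor1aip2 (r = 0.992), Uchl4, a ubiquitin hydrolase (0.990), and Ppil4, a cyclophilin (0.988), drawn from 9750 genes. Tor1aip2 had 43.3, 41.8 and 42.0 CPM in WT and 35.5, 35.0 and 34.9 CPM in KO. Its log2 difference was -0.27, against -0.36 for Uchl4 and -0.24 for Ppil4, and none passed (adjusted p = 0.989 each, edgeR's quasi-likelihood test).
For Nr3c1 they were the zinc-finger gene Zfp236 (r = 0.995), the sugar transporter Slc50a1 (0.980) and the macrophage growth factor Csf1 (0.979). For Nr3c2 they were Dnajc8 (0.979), Klc2 (0.976) and Icam1 (0.970). For Greb1 they were Gm15943 (0.990), Tbcd (0.984) and Tmem222 (0.984).

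Genes of the same hormone pathways were read as 5 lists, described by counts beside all 13848 genes tested, of which 6827 stood higher and 7021 lower in KO and whose log2 median was 0.00. In edgeR's quasi-likelihood test no list held a called gene, where the share over all genes was 0%. The estrogen response genes tested did not lean to either side, and whether they report receptor activity in muscle was not tested. All 30 listed were found and 20 were tested, 11 of them higher and 9 lower in KO. Their log2 differences had a median of 0.03 and a range from -0.44 to 0.37. The kinase gene Sgk3 averaged 17.3 ± 1.51 CPM across WT libraries against 14.4 ± 3.01 in KO, and Ebag9 averaged 6.71 ± 0.331 against 8.13 ± 0.719 (SD, n = 3 each). The lysosomal protease gene Ctsd was at 416 ± 20.4 and 448 ± 26.8 CPM, and the immediate early gene Fos at 2.97 ± 1.15 and 2.17 ± 0.746 CPM. Ebag9 was the 1 of 20 tested genes of the list whose groups did not overlap, with all KO values above WT, as for 4.96% of all genes tested, and no gene of the list had all below (5.45% of genes). Tff1, a leading estrogen target in breast cancer cells, had 0 reads in all libraries.

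Chaperones of the steroid receptors were evenly split, with 9 of 19 higher, 10 lower and a log2 median of -0.01. Cdc37, a kinase cochaperone, averaged 72.0 ± 5.42 CPM across WT libraries against 64.7 ± 5.17 in KO, and Bag1, an Hsp70 cofactor, 125 ± 3.87 against 135 ± 3.73 (SD, n = 3 each). Hsp90aa1, the inducible Hsp90, was at 48.8 ± 1.92 and 52.7 ± 4.07 CPM, and the phosphatase gene Ppp5c at 27.7 ± 2.35 and 30.1 ± 2.05 CPM. Bag1 and Fkbp4, the latter named after its values were seen, had all KO values above WT, 2 of 19 where 4.96% of all genes tested did so.

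Enzymes that make or inactivate steroids were mostly at or near 0. Of 31 genes listed 29 were found and 11 were tested. In KO 4 stood higher and 7 lower, and the log2 median was -0.02. Cyp19a1, the aromatase that makes estrogen from androgen, had 0 reads in all 6 libraries, as had Cyp17a1 and the estrogen sulfotransferase gene Sult1e1. Hsd17b4, a peroxisomal enzyme also of fatty acid oxidation, averaged 119 ± 10.4 CPM across WT libraries against 104 ± 8.14 in KO (SD, n = 3 each). Its unadjusted p of 0.0357 did not pass (adjusted p = 0.989, edgeR's quasi-likelihood test). For WT and KO in turn, Hsd17b12 averaged 6.39 ± 0.614 and 5.84 ± 1.23 CPM, and Hsd3b7 averaged 7.66 ± 2.48 and 8.39 ± 0.843 CPM. Hsd11b1, which regenerates active glucocorticoid and is named after its values were seen, was at 6.14 ± 0.855 and 5.81 ± 0.215 CPM (SD, n = 3 each).

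Mineralocorticoid response and sodium transport genes had 11 of 14 tested, of which 5 stood higher and 6 lower, and a log2 median of -0.02. That median ran from -0.16 without WT replicate 3 to 0.04 without KO replicate 3, so its sign rests on single libraries. The ubiquitin ligase gene Nedd4l averaged 12.9 ± 3.54 CPM across WT libraries against 10.4 ± 0.532 in KO, and the kinase gene Wnk1 189 ± 15.1 against 171 ± 15.4 (SD, n = 3 each). The clock gene Per1 was at 21.8 ± 3.47 and 19.4 ± 4.07 CPM and the deubiquitinase gene Usp2 at 69.1 ± 11.9 and 60.4 ± 13.7 CPM. The 3 subunits of the epithelial sodium channel were near 0, with no reads for Scnn1g in any library and at most 0.242 CPM for Scnn1a and 0.273 CPM for Scnn1b.

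**Figure D4:**
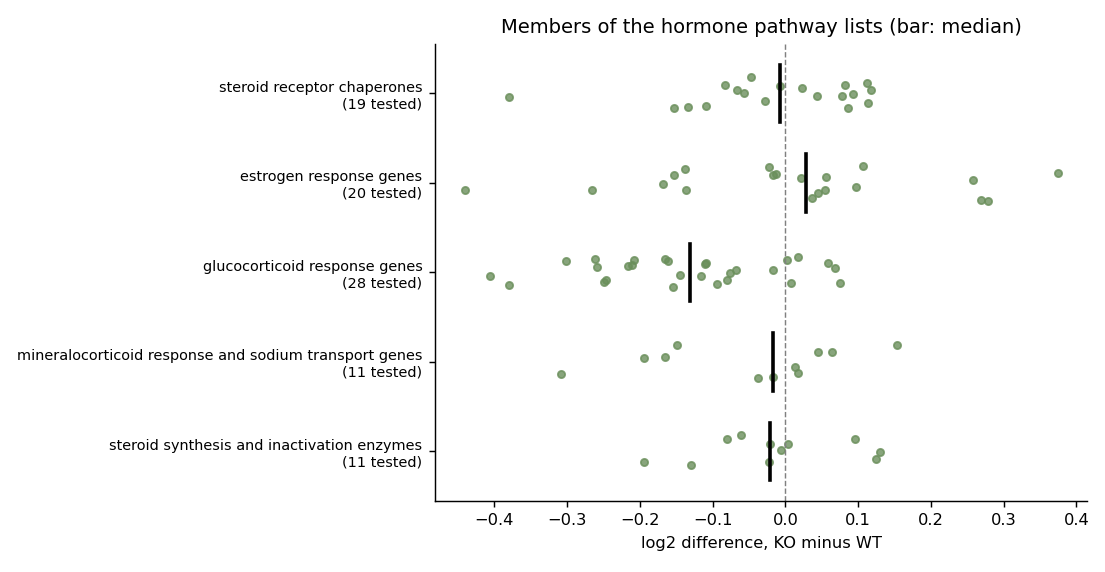
Log2 difference of KO from WT (horizontal axis) for each tested gene of the 5 pathway lists, with a point per gene, spread vertically for clarity, and a bar at the list's median. The medians lie at 0.03, -0.01, -0.13, -0.02 and -0.02 for estrogen response, chaperones, glucocorticoid response, mineralocorticoid response and steroid enzymes.

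Glucocorticoid response genes leaned lower in KO by count, yet the level of the list moved further between libraries of the same genotype than between genotypes. Of 28 tested 6 stood higher and 22 lower in KO. The median of their log2 differences was -0.13, and it was 0.01 without KO replicate 1 and -0.39 without KO replicate 2. Klf9, a transcription factor induced by glucocorticoids, had 265, 276 and 232 CPM in WT and 198, 248 and 204 CPM in KO. Its log2 difference was -0.25 ± 0.09 (SE) with an unadjusted p of 0.0177, which did not pass (adjusted p = 0.989, edgeR's quasi-likelihood test). Trim63, a ubiquitin ligase of muscle protein breakdown, averaged 179 ± 33.5 CPM across WT libraries against 145 ± 17.3 in KO (SD, n = 3 each). Irs2, an insulin receptor substrate, was at 11.2 ± 0.962 and 9.32 ± 1.65 CPM, and the transcription factor gene Klf15 at 68.1 ± 8.32 and 58.6 ± 11.8 CPM. The groups overlapped for each of these 4 genes.

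Replicate 2 of both genotypes stood high for this list. Relative to the mean of the WT libraries, its median log2 value was 0.02, 0.26 and -0.27 for WT and -0.51, 0.30 and -0.25 for KO. The same value over all genes tested was 0.00 in each library. Of 28 genes, 12, 3 and 25 lay below the WT mean in the WT libraries, and 27, 5 and 25 did in the KO libraries. The list was thus low in WT replicate 3, KO replicate 1 and KO replicate 3, across genotypes. Sgk1, a kinase induced by both adrenal receptors, had 61.3, 102 and 26.4 CPM in WT and 38.6, 107 and 45.6 CPM in KO. Tsc22d3, the glucocorticoid-induced leucine zipper gene, had 93.6, 127 and 79.9 CPM in WT and 69.1, 145 and 82.7 CPM in KO. Fkbp5, the cochaperone that restrains the glucocorticoid receptor, had 31.1, 39.8 and 29.0 CPM in WT and 11.2, 44.3 and 21.2 CPM in KO.

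These 3 genes, and the next one, are named after their values were seen. Ddit4, an inhibitor of mTOR signalling, had 6.56, 21.2 and 2.92 CPM in WT and 4.02, 20.3 and 7.31 CPM in KO. In all 4 genes both libraries of replicate 2 stood above the other 4 libraries. Nr3c1 itself did not share this pattern, being lowest in KO replicate 2 at 85.8 CPM and second lowest in WT replicate 2 at 93.8 CPM. Sgk1, Tsc22d3 and Per1 also belong to the mineralocorticoid list and Fkbp5 to the chaperones, so the lists are not separate evidence. The labels give no batch or time of collection, and the origin of the difference between libraries was not tested.

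**Figure D5:**
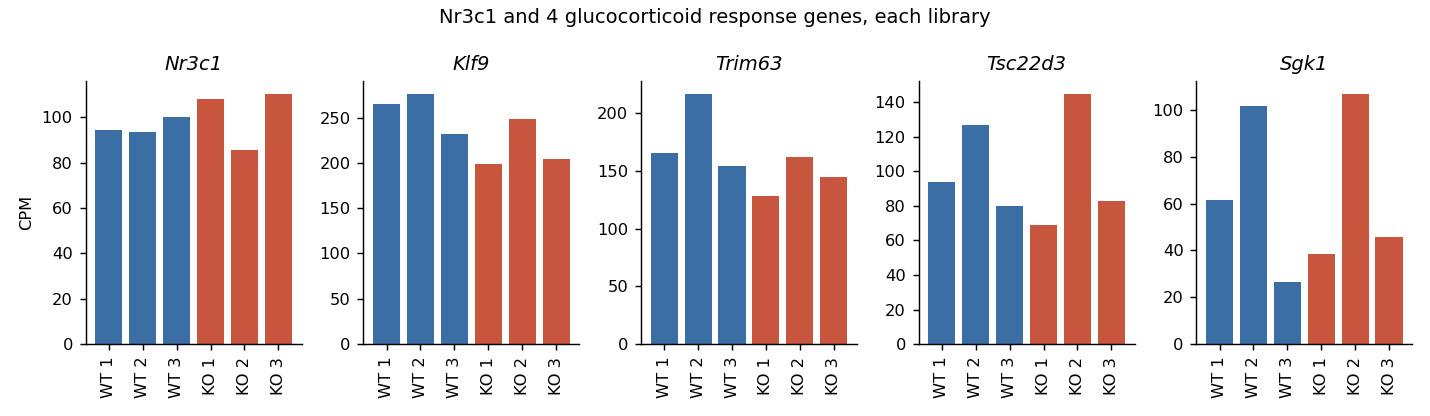
CPM (bars from 0) of Nr3c1 and of 4 glucocorticoid response genes in each WT and KO library. Tsc22d3 and Sgk1 are highest in WT 2 and KO 2 (127 and 145 CPM for Tsc22d3), while Nr3c1 is lowest in KO 2 at 85.8 CPM.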

How the data were processed

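Per the labels' protocols, Trizol was used to isolate RNA and the TruSeq RNA kit of Illumina to build libraries. The kit does not mark strand. TopHat 1.3.3, edgeR and mm10 are named without role or order, per the submitters' processing notes. No label or header names the read counter, the annotation or the treatment of multi-mapped reads. The table deposited by the authors holds raw counts per Ensembl gene. Its log2 fold changes and log2 mean abundances were computed by the authors, per the file headers. Its p-values and adjusted p-values were also deposited by the authors, and their test is not given. The members and lists were chosen with earlier results of these data known. A gene that the naming rule picked from the steroid enzyme list is not reported here.

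Repeated IDs (29 rows, identical counts) were merged. Coordinates and lengths came from GENCODE M21 (GRCm38, the assembly of mm10), which matched 32626 IDs, and promoter windows from RefSeq. Counts were filtered with filterByExpr (13848 genes kept), scaled by TMM and tested two-sided on genotype with the robust quasi-likelihood F-test of edgeR 4.0.16 in R 4.3.3, with Benjamini-Hochberg adjustment over all genes tested and a threshold of 0.05. The SE is the log2 difference divided by the square root of F. The test was also run on counts simulated with its own fitted spread, which cannot show its error rate in these libraries. Named were all members, up to 4 genes per list with the smallest unadjusted p, and the 3 genes most like Esr1, Nr3c1, Nr3c2 and Greb1 (log2 CPM with a prior count of 2). As alternatives, scaling was by RLE, by the upper quartile or by totals alone, the filter was 1 read in all or 1 CPM in 3 libraries, and the fit was DESeq2 1.42.0, limma voom 3.58.1, one with a replicate block or one without each library in turn. The longest transcript as gene length was chosen after seeing the data. Intervals and limits from counts cover counting error only.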

Additional observations from a re-analysis of the deposited data

How the results depend on the processing

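Esr1 stayed lower in KO under all 14 alternatives, with log2 differences from -1.60 to -1.36, and its adjusted p passed 0.05 in 1 of them, without the filter on low counts (log2 difference -1.44, adjusted p = 0.000142). It ranked between 1 and 9 by p. None of the other members was called under any alternative. Gpr30 (0.15 to 0.57), Nr3c1 (0.01 to 0.19) and Nr3c2 (0.01 to 0.22) kept a log2 difference above 0, whereas Greb1 turned negative when WT replicate 3 (-0.28), KO replicate 2 (-0.15) or replicate 3 of KO (-0.03) was left out, and was at most 0.42. Over all genes, 19 were called without the filter, 2 by DESeq2, 1 by limma voom and 0 to 3 with 1 library left out, the 3 without WT replicate 1; the causes were not tested. With 1 library left out, the median log2 difference of the glucocorticoid list ran from -0.39 to 0.01, of the mineralocorticoid list from -0.16 to 0.04, of the enzymes from -0.08 to 0.03, of the chaperones from -0.07 to 0.04 and of the estrogen response list from -0.07 to 0.09. Deviations of same-numbered libraries correlated at -0.01, 0.16 and 0.04, and those of other pairings at -0.17 to 0.14. Deviations within a group of 3 libraries are tied to each other, so these values cannot decide whether replicate numbers pair the libraries. With a replicate block the quasi-likelihood F-test of edgeR gave Esr1 -1.45 (adjusted p = 0.182) and 0 calls. Counts of 5 to 14 per library limit Greb1.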
